A study of Mus musculus with 6 samples.

Results

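The 9 genes described here encode non-receptor tyrosine kinases that act just under the cell membrane: the Src family kinases Lyn, Fgr, Src, Fyn, Lck, Blk and Yes1, the kinase Syk, and the Tec family kinase Btk. The rule that finds them uses gene symbols and no measured value, though the set was proposed with earlier results of these data known. A gene was followed where a probe set carried exactly 1 symbol equal to a member's, and 7 of the 9 had such a probe set, 1 each, among 19938 genes measured in this way. Lyn and Lck are not analysed here. All 7 measured members are reported, and none was dropped for a low value.

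Expression was measured in bone marrow cells of 6 mice, each on its own Affymetrix array. Lethally irradiated CD45.1+ recipients had received CD45.2+ LSK cells, a bone marrow fraction rich in haematopoietic stem and progenitor cells, that carried introduced Meis1 together with either HoxA9wt-GFP (3 mice, HoxA9wt/Meis1) or HoxA9AA-GFP (3 mice, HoxA9AA/Meis1). Both groups therefore carry introduced Meis1 and a HoxA9 form, and neither is normal marrow. RNA came from marrow harvested at the onset of disease, so the mice share a disease stage and not a stated time after transplantation. No age, sex or strain name is used here, the labels mention no sorting of donor from recipient cells before RNA extraction, and they do not describe the alteration in HoxA9AA. The labels call the 3 mice of a group biological replicates. Expression is given in log2 units, so that 1 unit stands for a factor of 2. Where a bulk value is lower, fewer cells of a type and less RNA per cell cannot be told apart.

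Src family kinases are held at the inner membrane by lipid anchors and phosphorylate the paired tyrosines of ITAM motifs in Fc receptors, lectin receptors and antigen receptors. Syk docks on those phosphorylated motifs through its paired SH2 domains and phosphorylates adaptor proteins, and Btk, drawn to the membrane by its PH domain, then activates phospholipase C gamma. The same Src family kinases also phosphorylate ITIM motifs in inhibitory receptors, which recruit phosphatases such as Ptpn6 that oppose the signal. In marrow, Fgr is known as a kinase of neutrophils, monocytes and macrophages, Blk as a kinase of the B lineage, Lck of T cells, and Fyn, Src and Yes1 as kinases of many cell types. Syk signalling has been studied as a dependency of leukaemias driven by Hoxa9 and Meis1.

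The 4 promoter windows below belong to the members whose values the account turns on: Fgr, Fyn and Btk, which spanned the widest range over the 6 arrays, and Syk, the 1 member whose groups did not overlap. Each is the 100 bases just before a RefSeq transcription start (build GRCm38.p6), written 5′ to 3′ on the gene's strand. They are chr4:132973995-132974094 (plus strand) for Fgr, chr10:39369699-39369798 (plus) for Fyn, chrX:134583141-134583240 (minus) for Btk and chr13:52596782-52596881 (plus) for Syk. Capitals mark a match, on either strand, to any of 4 short motifs, GAGGAA (the core bound by PU.1), TGTGGT (RUNX), TGACAG (MEIS) and TGATTTA (HOX with PBX).
Fgr: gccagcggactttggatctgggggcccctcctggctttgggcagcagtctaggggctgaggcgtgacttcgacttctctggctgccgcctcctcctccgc
Fyn: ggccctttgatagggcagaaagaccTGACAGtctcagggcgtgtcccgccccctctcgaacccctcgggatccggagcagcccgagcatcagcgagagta
Btk: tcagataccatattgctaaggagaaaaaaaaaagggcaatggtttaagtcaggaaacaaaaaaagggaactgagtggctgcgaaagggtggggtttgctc
Syk: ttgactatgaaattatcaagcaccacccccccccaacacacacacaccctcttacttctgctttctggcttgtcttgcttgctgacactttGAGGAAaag

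The Fyn window holds a TGACAG match from −75 to −70 relative to the start, and the Syk window a GAGGAA match from −9 to −4. Syk has 2 RefSeq windows, and the one shown was chosen because it holds the match. In the 250 bases before the start, 23.3% of all 32851 RefSeq windows hold GAGGAA, 15.9% TGACAG, 14% TGTGGT and 2.61% TGATTTA, so such matches are common letters and not known sites. The other windows of measured members that hold a match are those of Src, with GAGGAA on the opposite strand from −108 to −103, and of Yes1, with TGTGGT on the opposite strand from −248 to −243. Motif overlaps do not arise among these matches. The windows shown differ in base composition. C and G make up 67% of the 100 bases of Fgr with 5 CpG pairs and 64% in Fyn with 7. They make up 42% in Btk with 1 and 47% in Syk with 0. The 2 Syk windows differ from each other. Over 250 bases the one shown holds 47.6% C and G with 2 CpG pairs, and the other 71.6% with 27. Blk had no window in the table.

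None of the 7 kinase genes differed between the groups by the test. With limma, fitted over 19938 genes and adjusted by Benjamini-Hochberg, 0 of 7 members had an adjusted p under 0.05, and the background was 0% of all genes. At an unadjusted p under 0.05 the members again numbered 0 of 7, against 6.74% of all genes. Means were higher in HoxA9AA/Meis1 for Fyn, Blk, Yes1, Syk and Btk and lower for Fgr and Src, with a median difference of 0.05 over the members and 0.01 over all genes. For 1 member, Syk, all 3 HoxA9AA/Meis1 values lay above all 3 HoxA9wt/Meis1 values, a pattern shown by 6.60% of all genes. The opposite pattern was shown by 0 members and by 4.80% of all genes. The 3 against 3 design cannot give an exact permutation p under 0.1.

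**Figure D1:**
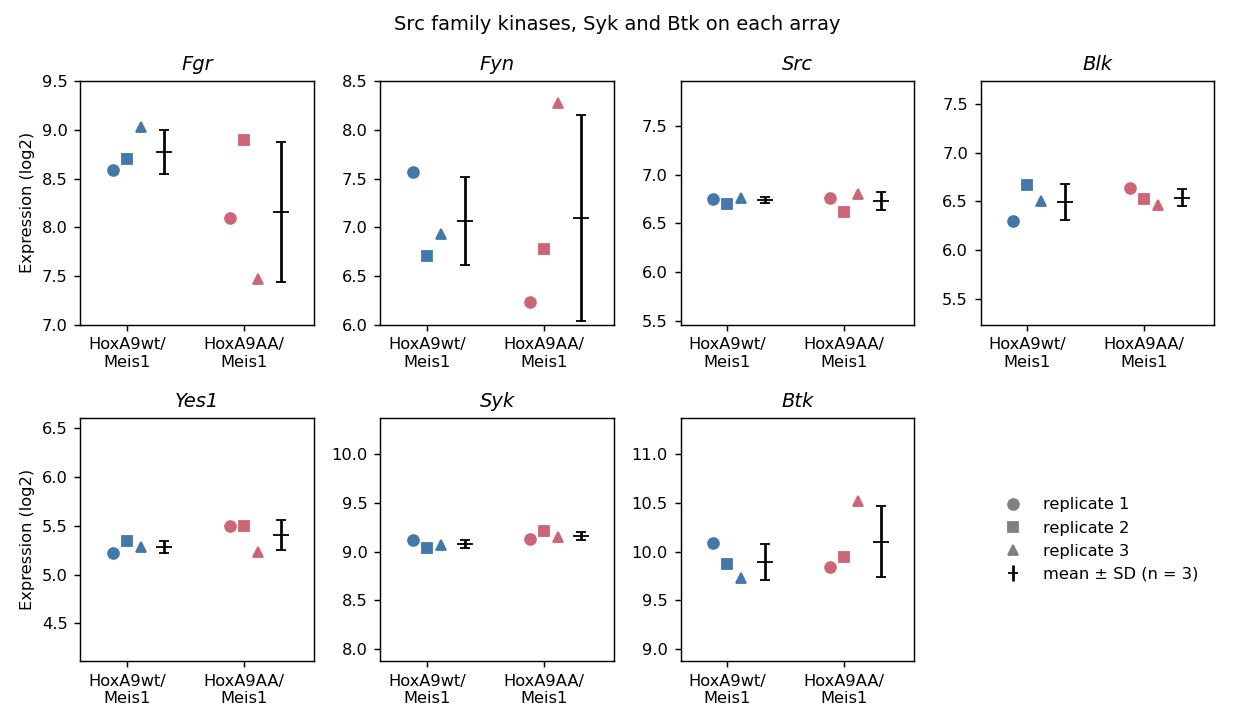
Expression (log2, vertical axis) of the 7 measured kinase genes per array; each symbol is 1 mouse, shaped by its replicate number, and bars are the group mean ± SD (n = 3). Every panel spans the same height in log2 units, so that the wide scatter of Fgr and Fyn among HoxA9AA/Meis1 mice (SD 0.72 and 1.06) can be set against the narrow scatter of Syk and Src (SD 0.04 and 0.09).

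Fgr, the myeloid Src family kinase, had the largest difference of the members, and it came from 2 of the 3 HoxA9AA/Meis1 mice. It measured 8.59, 8.70 and 9.03 in HoxA9wt/Meis1 replicates 1, 2 and 3, and 8.09, 8.90 and 7.47 in HoxA9AA/Meis1 replicates 1, 2 and 3. HoxA9AA/Meis1 replicate 2 sat among the HoxA9wt/Meis1 mice, and the other two lay below all of them, so the groups overlapped. The means were 8.77 ± 0.23 (SD, n = 3) and 8.15 ± 0.72, a difference of −0.62 ± 0.35 (SE; limma, adjusted p = 0.782), or 0.651-fold. The 95% interval ran from −1.46 to 0.22 and thus takes in both no difference and a value lower by more than 1. Leaving out 1 array at a time moved the difference from −0.28 (without HoxA9AA/Meis1 replicate 3) to −0.99 (without HoxA9AA/Meis1 replicate 2). In the latter fit Fgr had an unadjusted p of 0.00595 and an adjusted p of 0.147, and that fit leaves out the HoxA9AA/Meis1 mouse nearest to the HoxA9wt/Meis1 mice.

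The mice low in Fgr were also low in monocyte and macrophage markers. Of the 11 markers on that list 10 were measured and all 10 had a lower mean in HoxA9AA/Meis1, with a median difference of −0.57, against 46.4% of all genes with a lower mean (36.7% after quantile normalization). An unadjusted p under 0.05 was found for 2 of them (20%, against 6.74% of all genes). Averaged over the 10 genes, relative to the HoxA9wt/Meis1 mean, the list stood at −1.12 and −0.57 in HoxA9AA/Meis1 replicates 1 and 3, at 0.02 in replicate 2, and at −0.20 to 0.18 in the HoxA9wt/Meis1 mice. Fgr on the same scale stood at −0.68, −1.30 and 0.13 in HoxA9AA/Meis1 replicates 1, 3 and 2. The same 2 mice were low, yet in opposite order, with Fgr lowest in replicate 3 and the marker list lowest in replicate 1. The monocyte markers were far from absent, since Ccr2, a chemokine receptor of monocytes, measured 9.97 and 11.30 in those 2 mice against 12.05 to 12.25 in the others. The mean of the 10 late neutrophil granule markers, of another cell type known to use Fgr, stood at 0.95, 1.47 and −0.44 in HoxA9AA/Meis1 replicates 1, 2 and 3. In the HoxA9wt/Meis1 mice it stood at −1.87 to 1.13. Its genes went both ways, with 8 higher and 2 lower means in HoxA9AA/Meis1. Mmp8, among the lower ones, measured 8.07, 11.44 and 6.07 in HoxA9AA/Meis1 replicates 1, 2 and 3. It measured 11.7 to 12.49 in the HoxA9wt/Meis1 mice. Like Fgr, Mmp8 was lowest in HoxA9AA/Meis1 replicate 3 and next in replicate 1. Mmp8 was the exception on its list, since every other gene there was lowest in HoxA9wt/Meis1 replicate 3. Among these was Ltf, the other gene with a lower mean, at 5.73 in that mouse. The part of these markers in the Fgr values was not tested.

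The genes whose pattern over the 6 arrays was most like that of Fgr were Cep85l, Dnajb14, Dnajb3, Ifi30 and Dpep2, with Pearson's r between 0.976 and 0.989. These are the top 5 of 1971 genes with a mean at or over the median of all probe sets and a span of at least 1 over the arrays, and with 6 arrays such values describe likeness and are given without a test. Ifi30, a thiol reductase of the lysosome used in antigen processing, measured 11.10 to 11.56 in the HoxA9wt/Meis1 mice and 10.18, 11.40 and 9.28 in HoxA9AA/Meis1 replicates 1, 2 and 3. Dpep2, a membrane dipeptidase, ranged from 6.94 in HoxA9AA/Meis1 replicate 3 to 10.74 in HoxA9wt/Meis1 replicate 3. In both genes, as in Fgr, HoxA9AA/Meis1 replicate 3 was lowest and replicate 1 next, a match that their choice by likeness to Fgr brings about.

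Fyn, a Src family kinase of T cells, mast cells and many other cell types, spanned the widest range of the members, and its group means were nearly equal. It measured 7.57, 6.70 and 6.93 in the HoxA9wt/Meis1 mice and 6.23, 6.78 and 8.27 in the HoxA9AA/Meis1 mice. The highest and the lowest array both belonged to HoxA9AA/Meis1, replicates 3 and 1, and they were 2.04 apart, a wider span than that of 97.8% of all genes (median span 0.43). The means were 7.07 ± 0.45 and 7.09 ± 1.06, a difference of 0.03 ± 0.53 (limma, adjusted p = 0.994) with a 95% interval from −1.24 to 1.29. Its sign is not fixed by these data, since leaving out 1 array at a time gave −0.56 (without HoxA9AA/Meis1 replicate 3) to 0.46 (without HoxA9AA/Meis1 replicate 1). At 6.23, the value in HoxA9AA/Meis1 replicate 1 lay under 6.72, the 95th percentile of 1015 olfactory receptor genes on that array, which serve as a measure of background.

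Btk, the Tec family kinase best known downstream of the B cell receptor and also used by myeloid and mast cells, was highest in the same 2 mice as Fyn. It measured 10.09, 9.87 and 9.73 in HoxA9wt/Meis1 replicates 1, 2 and 3 and 9.84, 9.95 and 10.52 in HoxA9AA/Meis1 replicates 1, 2 and 3. HoxA9AA/Meis1 replicate 3 stood apart at the top and HoxA9wt/Meis1 replicate 1 came next, while the other 4 mice lay within the HoxA9wt/Meis1 range. The means were 9.90 ± 0.18 and 10.10 ± 0.37, a difference of 0.21 ± 0.20 (limma, adjusted p = 0.892) with a 95% interval from −0.27 to 0.68. Without HoxA9AA/Meis1 replicate 3 the difference was −0.0017, so that the higher mean rests on that mouse.

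The mean of the mast cell and basophil markers was highest in the 2 mice in which Fyn and Btk were highest. The list, with 6 of 6 genes measured, stood at 0.86 in HoxA9wt/Meis1 replicate 1 and 1.15 in HoxA9AA/Meis1 replicate 3, against −0.47 and −0.40 in the other HoxA9wt/Meis1 mice and 0.03 and −0.56 in the other HoxA9AA/Meis1 mice. Of its genes 4 had a higher and 2 a lower mean in HoxA9AA/Meis1. For 3 of the 6, the median lay under the mean of the arrays' olfactory receptor 95th percentiles. Cpa3, the carboxypeptidase of mast cell granules, measured 10.47 and 11.08 in those 2 mice and 5.69 to 7.83 in the other 4. Fcer1a, a chain of the high-affinity IgE receptor, lay at 4.21 to 4.96 on all 6 arrays. Hdc measured 8.67 in HoxA9AA/Meis1 replicate 3, but its 7.20 in HoxA9wt/Meis1 replicate 1 lay under 7.53 in HoxA9AA/Meis1 replicate 1. Markers of T and NK cells, which also use Fyn, did not follow it: their list stood at −0.19 in HoxA9AA/Meis1 replicate 3 and 0.11 in HoxA9wt/Meis1 replicate 1, and 7 of its 10 genes had a median under the mean of the arrays' olfactory receptor 95th percentiles. The mean of the 9 measured B cell markers was highest, at 0.22, in HoxA9AA/Meis1 replicate 2. In the mouse with the most Btk, HoxA9AA/Meis1 replicate 3, single B cell markers went both ways. Cd79b, at 9.37 against 7.46 to 8.46 elsewhere, and Vpreb1, at 6.88, were highest there. Cd79a, Ebf1, Ms4a1 and Fcrla were lowest there, at 5.10, 5.34, 5.05 and 6.31. The part of the mast and B cell markers in the Fyn and Btk values was not tested.

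The 5 genes most like Fyn over the arrays were Nipsnap3b, Ndufa8, Pus7, Ddx56 and Adgrg7, with Pearson's r between 0.980 and 0.989 over the 6 arrays. Adgrg7, an adhesion G protein-coupled receptor, measured 8.98 and 10.42 in HoxA9wt/Meis1 replicate 1 and HoxA9AA/Meis1 replicate 3, and 5.85 to 7.78 elsewhere. Ndufa8, a subunit of mitochondrial complex I, spanned less, from 8.57 to 10. All 5 were lowest in HoxA9AA/Meis1 replicate 1 and highest in HoxA9AA/Meis1 replicate 3, as Fyn was. The genes were chosen by their likeness to Fyn on these arrays, so this match adds no support.

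**Figure D2:**
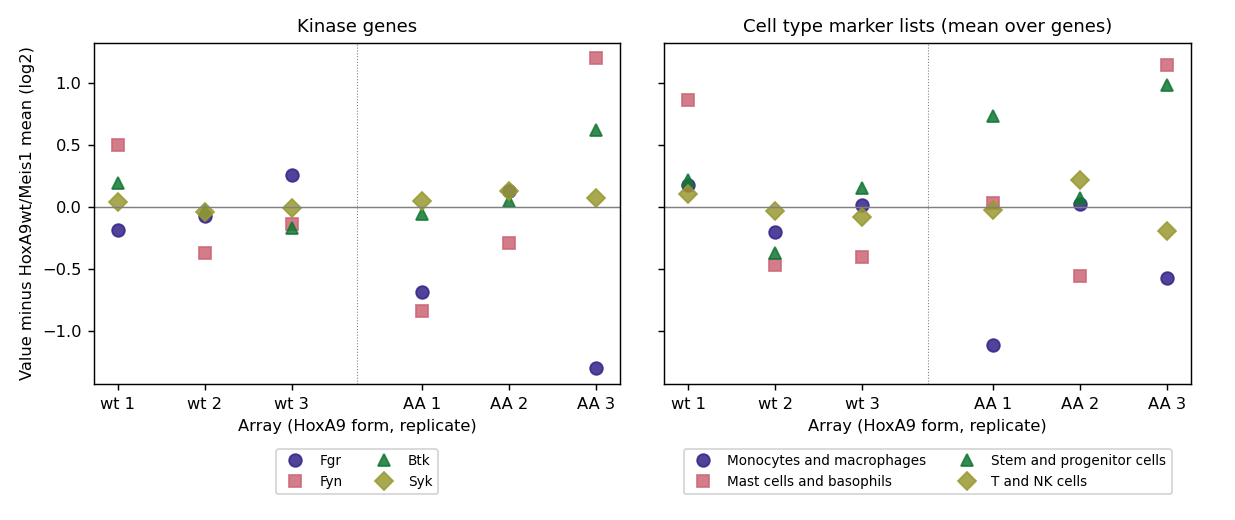
Values on each array relative to the HoxA9wt/Meis1 mean (log2, vertical axis), on the left for Fgr, Fyn, Btk and Syk and on the right for the mean over the genes of 4 cell type marker lists; horizontal axis, the 6 arrays by HoxA9 form and replicate. Fyn stands at 0.50 and 1.20 and the mast cell list at 0.86 and 1.15 in HoxA9wt/Meis1 replicate 1 and HoxA9AA/Meis1 replicate 3, and Fgr and the monocyte list are low in HoxA9AA/Meis1 replicates 1 and 3.

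Syk, the kinase that reads phosphorylated ITAMs, varied little among the 6 mice and was slightly higher in each HoxA9AA/Meis1 mouse. It measured 9.12, 9.04 and 9.07 in the HoxA9wt/Meis1 mice and 9.13, 9.21 and 9.15 in the HoxA9AA/Meis1 mice. The groups did not overlap, but the nearest mice, at 9.12 and 9.13, were 0.01 apart. The means were 9.08 ± 0.04 and 9.16 ± 0.04, a difference of 0.09 ± 0.08 (limma, adjusted p = 0.883), or 1.06-fold, with an exact two-sided permutation p of 0.1, the smallest possible here. The 95% interval ran from −0.10 to 0.28, and does not reach a change of 1 on the log2 scale in either direction. All 6 values fell within 0.17, a narrower span than that of 92.7% of all genes.

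Src, Blk and Yes1 lay close to or within the range of the olfactory receptor genes, which marrow is not known to use, and their groups overlapped. Src, the founding member of its family, measured 6.75, 6.70 and 6.76 in the HoxA9wt/Meis1 mice and 6.76, 6.62 and 6.8 in the HoxA9AA/Meis1 mice. The difference was −0.01 ± 0.09 (limma, adjusted p = 0.994; 95% interval −0.22 to 0.20), and its sign turned, to 0.0144, with quantile normalization of the deposited values. Src exceeded the olfactory receptor 95th percentile on all 6 arrays by 0.04 to 0.28. Its 20 nearest expressed genes on chromosome 2 stood at medians of −0.24, −0.05 and 0.11 against the HoxA9wt/Meis1 mean in HoxA9AA/Meis1 replicates 1, 2 and 3. Src itself, near background, stood at 0.02, −0.12 and 0.06 there.

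Blk measured 6.30, 6.67 and 6.50 in the HoxA9wt/Meis1 mice and 6.64, 6.52 and 6.46 in the HoxA9AA/Meis1 mice. It exceeded the olfactory receptor 95th percentile on 1 array, by 0.02, and its difference was 0.05 ± 0.12 (limma, adjusted p = 0.972; 95% interval −0.24 to 0.34). Of the 9 measured B cell markers 5 had a median under the mean of those percentiles, among them Cd79a at 5.10 to 5.70 and Ebf1 at 5.34 to 5.85. The other 4 did not, and Cd79b, a signalling chain of the B cell receptor, measured 7.46 to 9.37. Yes1, a widely expressed relative of Src, measured 5.22, 5.35 and 5.28 against 5.5, 5.5 and 5.23, below that percentile on all 6 arrays by 1.04 to 1.37. HoxA9AA/Meis1 replicates 1 and 2 were above the HoxA9wt/Meis1 mice and replicate 3 was among them, a difference of 0.13 ± 0.11 (limma, adjusted p = 0.866; 95% interval −0.13 to 0.38). Arrays are known to compress differences near background, so the Src, Blk and Yes1 values can understate a difference in RNA.

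**Figure D3:**
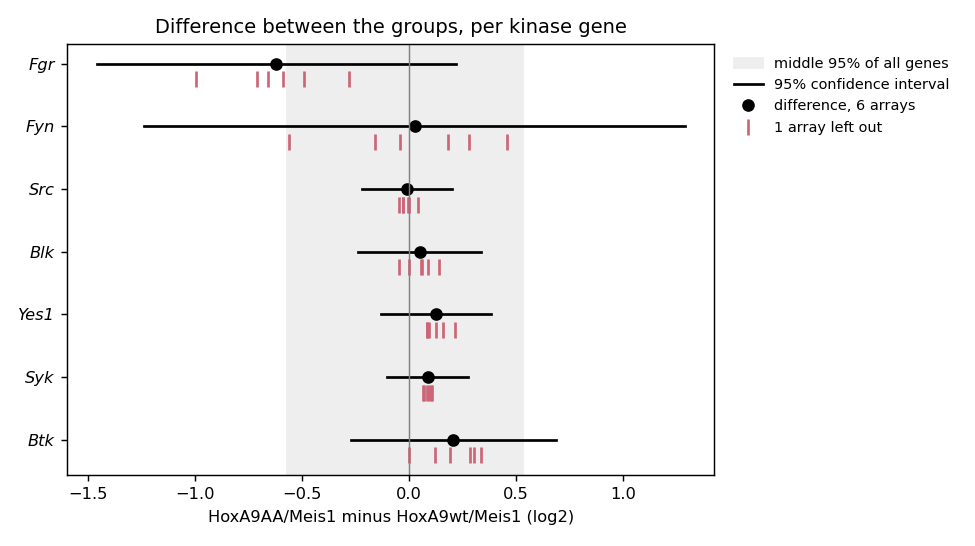
Difference between HoxA9AA/Meis1 and HoxA9wt/Meis1 means (log2, horizontal axis) for the 7 kinase genes; dots are the differences over 6 arrays, lines their 95% intervals, ticks the differences with 1 array left out, and the grey band holds the middle 95% of all 19938 genes (−0.57 to 0.53). All 7 intervals include 0, the Fgr dot at −0.62 lies just outside the band, and the Fyn interval is the widest.

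Scatter among the mice was larger in HoxA9AA/Meis1 for 6 of the 7 members, all but Blk, and for 70.8% of all genes. The median SD of the members did not follow, at 0.181 in HoxA9wt/Meis1 and 0.156 in HoxA9AA/Meis1. Over all genes it was 0.105 and 0.172. In HoxA9wt/Meis1 and HoxA9AA/Meis1 the SD was 0.23 and 0.72 for Fgr, 0.45 and 1.06 for Fyn and 0.18 and 0.37 for Btk. Syk, counted among the 6, had nearly equal SDs of 0.0404 and 0.0416. HoxA9AA/Meis1 replicate 2 was the array of its group most like the HoxA9wt/Meis1 arrays, with Pearson's r of 0.989 to 0.991 (taken across genes, which do not replicate a mouse). HoxA9AA/Meis1 replicates 1 and 3 correlated with the HoxA9wt/Meis1 arrays at 0.958 to 0.970. For Fgr, Fyn and Btk the array farthest from the HoxA9wt/Meis1 mean was HoxA9AA/Meis1 replicate 3.

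The genes that work with these kinases were examined as 5 lists, with 99 of 103 genes measured. With limma, 0 of the 99 had an adjusted p under 0.05, against 0% of all genes. At an unadjusted p under 0.05 there were 15 (15.2%, against 6.74% of all genes), 4 higher and 11 lower in HoxA9AA/Meis1. The share of lower genes among them was 73.3%, and 55.6% (8 higher and 10 lower) after quantile normalization of the deposited values. The balance was not stable: it was 8 higher and 8 lower with array weights, 3 and 3 without moderation of the variance and 5 and 5 without HoxA9AA/Meis1 replicate 3, and it turned to 5 higher and 3 lower without HoxA9wt/Meis1 replicate 1. Lower means were found for 55.6% of the 99 genes and 46.4% of all genes. The median difference was −0.06 over the 99 genes and 0.01 over all genes. Genes of low value make up more of all genes than of these lists. In a limma fit of only the genes at or over the median of all probe sets, 15.1% of the lists' genes had an unadjusted p under 0.05. The share over all genes in that fit was 8.38%. The count of 15 became 36 without HoxA9AA/Meis1 replicate 2, 8 without HoxA9wt/Meis1 replicate 1 and 9 without HoxA9wt/Meis1 replicate 3. As shares, these were 36.4%, 8.08% and 9.09% of the 99 genes, against 14.1%, 4.15% and 3.05% of all genes in the same fits. Many of the lists' receptors belong to monocytes and macrophages, whose markers were low in HoxA9AA/Meis1 replicates 1 and 3 as described above, and the part of those cells was not tested.

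Activating receptors that signal through these kinases had mostly lower means in HoxA9AA/Meis1. Of 19 chains and receptors on the activating side 14 had a lower and 4 a higher mean (73.7% lower, against 46.4% of all genes; median −0.21). An unadjusted p under 0.05 was found for 3 (15.8%, against 6.74%), all lower. Clec5a, a lectin receptor that signals through the ITAM adaptor Tyrobp, measured 9.95, 10.22 and 9.53 in the HoxA9wt/Meis1 mice and 8.40, 9.25 and 7.99 in the HoxA9AA/Meis1 mice. Its groups did not overlap and its difference was −1.35 ± 0.34 (limma, adjusted p = 0.731). Fcgr4, an activating Fc receptor, differed by −1.21, Trem2, another partner of Tyrobp, by −0.24, and the Fc receptor Fcgr3 by −0.39, each without passing the adjusted threshold. The shared ITAM chains themselves differed less: Fcer1g averaged 12.21 in both groups, and Tyrobp differed by −0.21, with its lowest value, 11.53, in HoxA9AA/Meis1 replicate 1.

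Differences on the list of inhibitory ITIM receptors ran from −2.66 for Clec4a3 to 1.19 for Pecam1. The list was set by gene name. Whether each of its genes, among them Clec4a3 and Cd33, carries an ITIM or inhibits in the mouse was not checked here. Of 18 genes 10 had a lower and 7 a higher mean (55.6% lower, against 46.4% of all genes; median −0.28). An unadjusted p under 0.05 was found for 5 (27.8%, against 6.74%), 4 of them lower. Pecam1, an adhesion receptor with ITIM motifs found on endothelium, platelets and progenitors, measured 9.84, 8.96 and 9.32 against 10.88, 9.87 and 10.94, a difference of 1.19 ± 0.35 (limma, adjusted p = 0.731). All 3 HoxA9AA/Meis1 mice lay above the HoxA9wt/Meis1 mice, the nearest pair by 0.03. The sialic acid receptor gene Cd33 differed by −0.55 and Cd300lf, a lipid-binding receptor, by −0.91, with non-overlapping groups in both. Clec4a3 differed by −2.66, with 6.69 and 7.20 in HoxA9AA/Meis1 replicates 1 and 3 and 10.97 in replicate 2 against 10.73 to 11.09. It was the 1 gene of these lists to pass when HoxA9AA/Meis1 replicate 2 was left out (−4.01, adjusted p = 0.00827), a fit without the mouse in which it was high.

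The list of kinase regulators and phosphatases had 15 of 20 genes with a lower mean (75%, against 46.4% of all genes; median −0.11) and 4 with an unadjusted p under 0.05 (20%, against 6.74%), all lower. Most of its genes are known to restrain these kinases, but Ptprc and Ptprj, at −0.41 and −0.82, are phosphatases known to activate Src family kinases by removing the inhibitory phosphate of their tail, and Ptpn11, at −0.06, is known to promote receptor signalling. Sla, an adaptor that promotes receptor downregulation, measured 11.55, 11.44 and 11.54 against 10.32, 11.21 and 10.91, a difference of −0.70 ± 0.22 (limma, adjusted p = 0.731), with groups that did not overlap. Ubash3b, a phosphatase that acts on Syk family kinases, differed by −0.46, Pag1, the membrane anchor of the inhibitory kinase Csk, by −0.51, and the ubiquitin ligase gene Cblb by −0.52. Csk itself differed by 0.39 and Ptpn6 by −0.11, with unadjusted p of 0.123 and 0.498.

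Among 11 measured kinases related to the members, 6 had a higher and 5 a lower mean (54.5% higher, against 52.7% of all genes; median 0.10). An unadjusted p under 0.05 was found for 2 (18.2%, against 6.74%), both higher. Tec, the kinase after which the family of Btk is named, measured 8.84, 8.64 and 8.61 in the HoxA9wt/Meis1 mice and 9.31, 8.98 and 9.24 in the HoxA9AA/Meis1 mice. The groups did not overlap, all 3 HoxA9AA/Meis1 mice were higher, and the difference was 0.48 ± 0.12 (limma, unadjusted p = 0.00660, adjusted p = 0.731). Fer, a kinase of the Fes family, measured 6.65, 6.31 and 6.68 against 7.17, 6.79 and 7.5, a difference of 0.61 ± 0.20, and Ptk2b and Abl1 differed by 0.27 and 0.42. Stem and progenitor markers, of cells that also use Tec, stood at 0.74, 0.07 and 0.99 in HoxA9AA/Meis1 replicates 1, 2 and 3 and at −0.37 to 0.22 in HoxA9wt/Meis1, and 6 of their 7 measured genes had a higher mean (85.7%, against 52.7% of all genes). The list includes Meis1, which was introduced in both groups. Meis1 was the 1 gene with a lower mean, at −0.08, and measured 8.50, 9.51 and 10.58 in HoxA9AA/Meis1 replicates 1, 2 and 3. The part of the stem and progenitor markers in the Tec values was not tested.

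Adaptors and targets further down the pathway had means on both sides, with 20 of 31 measured genes higher (64.5%, against 52.7% of all genes), 11 lower and a median of 0.05, and 1 gene (3.23%, against 6.74%) had an unadjusted p under 0.05. That gene was Gab1, a docking adaptor, at 6.76 ± 0.05 against 7.13 ± 0.30 (difference 0.38; limma, adjusted p = 0.731). Skap2, an adaptor of integrin signalling in myeloid cells, differed by −0.34, Malt1, a protease of the Card9 and Bcl10 complex, by −0.52, and the transcription factor gene Nfatc1 by 0.37. Plcg2, the phospholipase that Btk activates, averaged 9.79 ± 0.09 and 9.86 ± 0.15, a difference of 0.07 ± 0.11 with a 95% interval from −0.19 to 0.33.

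**Figure D4:**
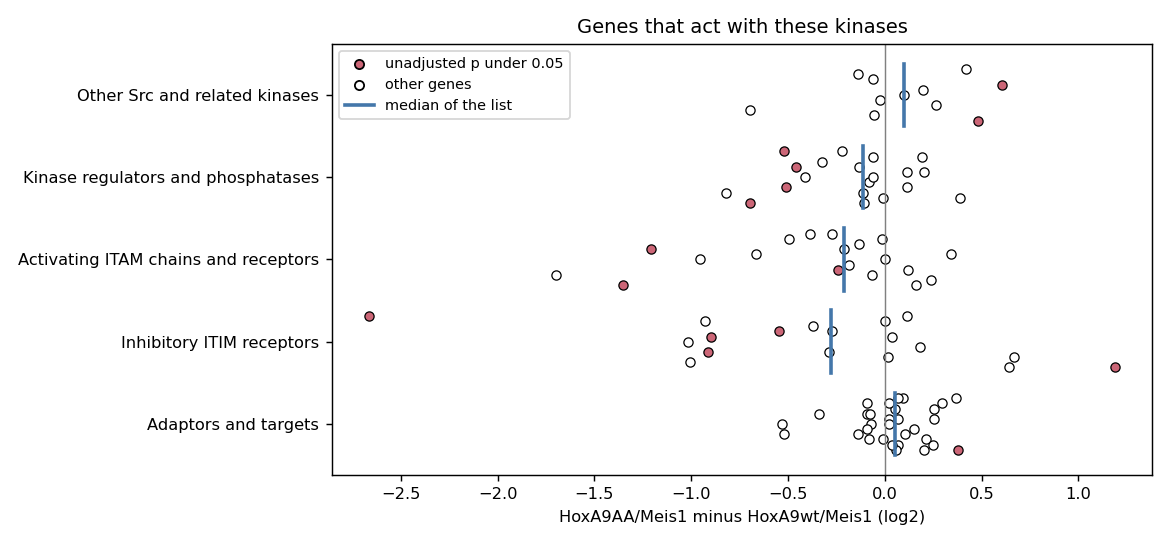
Difference between HoxA9AA/Meis1 and HoxA9wt/Meis1 means (log2, horizontal axis) for the 99 measured genes that act with these kinases, by list (vertical axis); filled points have an unadjusted p under 0.05, none passed after adjustment, and blue lines are list medians. The filled points of the receptor and regulator lists lie below 0 except Pecam1 at 1.19, and those of the related kinases, Tec and Fer, lie above 0 at 0.48 and 0.61.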

How the data were processed

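The deposited values are log2 expression per probe set, made by the authors with the R package oligo and RMA (background correction, quantile normalization, summary per probe set), per the submitters' processing notes; their versions are not given in the sources at hand. Of 35556 probe sets, 21789 had 1 symbol in the platform annotation, 1621 with several were not used, and 12146 are unnamed here. The brightest was used for 999 genes with more than 1. Array medians lay between 6.73 and 6.85.

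The comparison used limma (version 3.58.1, R 4.3.3; lmFit, eBayes without trend, two-sided, no block; HoxA9AA/Meis1 minus HoxA9wt/Meis1), with Benjamini-Hochberg adjustment over 19938 genes and a threshold of 0.05, and the fit was tested on simulated data. Each array gives 1 value per probe set, so precision comes from the 3 mice per group. Members and lists were chosen with earlier results of these data known. The text names all members, the 4 genes of smallest p of each pathway list, and the 5 genes most like each member spanning at least 1. Fcer1g, Tyrobp, Csk, Ptpn6, Ptprc, Ptprj, Ptpn11, Plcg2 and the cell type markers named were picked after their values were seen. Alternatives were other scalings, filters, probe set rules and variance models, a replicate block, and each array left out. Promoter sequences are from RefSeq, and figures were drawn with matplotlib 3.10.9.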

Additional observations from a re-analysis of the deposited data

How the results depend on the processing

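Fgr (−0.28 to −0.99), Yes1 (0.08 to 0.22) and Syk (0.06 to 0.11) kept their direction under every alternative run, and no member passed the adjusted threshold under any (lowest adjusted p 0.147, Fgr without HoxA9AA/Meis1 replicate 2). Differences near 0 turned: Src to 0.0144 with quantile normalization and 0.015 with median centring, and Blk to −0.0025 with array weights. With 1 array left out, Src ran from −0.0467 to 0.0433, Fyn from −0.5617 to 0.4583, Blk from −0.045 to 0.14 and Btk from −0.0017 to 0.3383. Genes past the threshold then numbered 0 to 48 over all genes and 0 to 1 among pathway genes, the highest counts without HoxA9AA/Meis1 replicate 2. The 15 pathway genes with an unadjusted p under 0.05 became 6 (6.06%, against 4.8% of all genes) without moderation of the variance. With 1 array left out they became 8 to 36 (8.08% to 36.4%, against 3.05% to 14.1% of all genes). Among all genes with such a p, 38.4% were lower, and 27.6% after median centring. Src, Blk and Yes1 lie under the median of all probe sets and have no value with that filter. The array number limits every value.

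Across genes, same-numbered arrays' deviations from their own group mean correlated at −0.208, −0.103 and −0.013. These values gave no sign that the replicate numbers pair the mice. With 3 arrays per group, centred on their own mean, they cannot exclude a pairing. With the replicate number as a block, 0 members and 0 pathway genes passed, and Fgr stayed at −0.62 (adjusted p = 0.921). In that fit 17 pathway genes (17.2%, against 5.6% of all genes) had an unadjusted p under 0.05. With 3 pairs, no array correlated best with its own number.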
